A study of Mus musculus with 2 samples.

Results

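Iron leaves, enters and is stored in cells through a small set of proteins, and 8 of their genes were measured here in mouse bone marrow myeloid cells: Slc40a1, Slc11a1, Slc11a2, Hmox1, Fth1, Ftl1, Tfrc and Ncoa4. They were chosen by symbol for these roles, each symbol matched 1 gene, and they are 8 of the 31053 genes in the deposited tables. The study induced severe aplastic anemia (SAA), an immune-mediated loss of the marrow, in C57BL/6;Balb/c hybrid F1 mice by 300 rads of radiation followed by 65000000 B6 splenocytes, while radiation control (RC) mice received 300 rads alone. Live (7-AAD-) CD11b+Ly6C+Ly6G- marrow cells were sorted, the cells of 3 mice per group were pooled, and each pool gave 1 droplet library read from the 5′ end of the transcripts. Both groups were thus irradiated, and neither the label nor the sort separates host cells from donor cells. With 1 library per condition there is no replicate check and no test between conditions. Every interval given is a 95% interval that covers counting error only. It is exact Poisson for a level, exact conditional for a ratio and exact binomial for a share of cells. For a ratio of ratios it is a log-normal approximation.

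Slc40a1 encodes ferroportin, the cellular exporter of iron, and Tfrc encodes the transferrin receptor, through which cells take up transferrin-bound iron. Slc11a1 and Slc11a2 encode transporters of divalent metals, Hmox1 encodes heme oxygenase, which releases iron from heme, Fth1 and Ftl1 encode the heavy and light chains of the storage shell ferritin, and Ncoa4 carries ferritin to lysosomes for breakdown. Phagocytes that clear old red cells pass large amounts of iron through these proteins. Iron regulatory proteins bind a hairpin in several of these messenger RNAs, the iron-responsive element (IRE), which blocks translation when it lies in the 5′ UTR and protects the message when it lies in the 3′ UTR. A level of messenger RNA is therefore only part of what sets the level of protein.

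The hairpin letters were looked up in the reference transcripts, and 4 of the 8 genes hold them. A match tells which of the genes have a reference transcript with this exact pattern, and not which of them lack the element. The levels below are counted per gene and do not tell which of its transcripts was present. The pattern searched was a C, any 5 bases (NNNNN) and the loop CAGTGN with a last base of A, C or T, followed by bases that pair with the 5 before the loop, on the sense strand. Capitals mark the unpaired C and the loop of 6 bases, and 5 bases flank the element on each side.
Slc40a1: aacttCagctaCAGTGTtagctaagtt
Fth1: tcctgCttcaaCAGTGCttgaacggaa
Ftl1: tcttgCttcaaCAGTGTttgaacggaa
Tfrc site 1: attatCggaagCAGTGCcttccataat
Tfrc site 2: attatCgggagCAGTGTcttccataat
Tfrc site 3: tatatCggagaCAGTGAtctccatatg
Tfrc site 4: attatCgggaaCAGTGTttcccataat
The Slc40a1 element lies at chr1:45925466-45925492 on the minus strand (GRCm38), in exon 1 of 8 and in the 5′ UTR. The Fth1 element at chr19:9982733-9982759 (plus strand) and the Ftl1 element at chr7:45459780-45459806 (minus strand) are both in exon 1 of 4 and in the 5′ UTR. The 4 Tfrc elements lie between 32631220 and 32631737 on chromosome 16 (plus strand), all in exon 19 of 19 and in the 3′ UTR. Fth1 and Ftl1 have 25 of the 27 printed bases in common, whereas Fth1 and Slc40a1 have 13. Of 21901 protein-coding genes searched, 222 (1.01%) hold a match anywhere, 23 (0.105%) in a 5′ UTR and 100 (0.457%) in a 3′ UTR. Slc11a1, Slc11a2, Hmox1 and Ncoa4 hold none, which says only that these letters are not in the transcripts searched. A hairpin that departs from the pattern, such as one with an extra unpaired base, would not be found. A match is a description of the sequence and not evidence of binding.

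The SAA library held 825 barcodes with 5592265 unique molecular identifiers (UMIs, counted transcripts) and the RC library held 798 with 4066589, and 1 barcode sequence occurred in both. Cells with at least 1000 detected genes were kept, 729 in SAA and 662 in RC. A cell was called monocyte-like where the summed UMIs of Csf1r, Ccr2, F13a1, Ms4a6c and Ly86 exceeded those of Camp, Ngp, Fcnb, Cebpe, Elane, Mpo, Prtn3 and Ctsg, and granulocyte-like in the opposite case, so granulocyte-like cells made up 57.8% of the SAA cells and 48.0% of the RC cells of a gate that excludes Ly6G. Monocyte-like cells numbered 285 in SAA and 342 in RC, with median depths of 6082 and 3348 UMIs, and granulocyte-like cells numbered 421 and 318, with median depths of 6849 and 6788. Granulocyte-like cells were split into early cells, with more Elane and Mpo than Camp and Ngp (29 in SAA and 45 in RC), and late cells with the reverse (392 and 272). T or NK markers exceeded both lists in 39 SAA cells and 1 RC cell. Levels are given as UMIs per 1000000 UMIs of the cell group (CPM). In such sums more cells with a transcript and more transcript per cell cannot be told apart, and neither can the pooled mice.

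The genes fell into separate cell classes. In granulocyte-like cells Slc40a1 stood at 58.8 CPM (50.9 to 67.7) in SAA and 85.1 CPM (74.0 to 97.4) in RC, while monocyte-like cells held 3 UMIs (1.48 CPM) and 1 UMI (0.736 CPM). The granulocyte-to-monocyte ratio of Slc40a1 was 39.8 in SAA (13.4 to 194.5) and 115.6 in RC (20.5 to 4586), and 99.5% and 99.8% of all genes had a lower one. Tfrc and Ncoa4 were also higher in granulocyte-like cells, Tfrc by 5.67 times in SAA (3.32 to 10.4) and 12.1 times in RC (5.01 to 37.9), and Ncoa4 by 3.67 times in SAA (2.73 to 5.02) and 3.73 times in RC (2.65 to 5.40). In SAA the other members were lower there, and in RC all of them but Slc11a2. The granulocyte-to-monocyte ratio of Slc11a2 was 0.0918 in SAA (0.0175 to 0.309) and 1.10 in RC (0.234 to 6.77, from 6 and 3 UMIs). Slc11a1 had granulocyte-to-monocyte ratios of 0.0587 in SAA and 0.00961 in RC (0.000239 to 0.0557, from 1 UMI in granulocyte-like cells), Hmox1 of 0.371 and 0.137, Fth1 of 0.203 and 0.254, and Ftl1 of 0.357 and 0.292. Of 8 members with at least 20 UMIs in SAA, 3 were at least 1.5-fold higher in granulocyte-like cells (background 15.1% of 9084 genes) and 5 at least 1.5-fold lower (36.9%). In RC, with 7 such members, 3 were higher (15.0% of 8695 genes) and 4 lower (39.7%). The median log2 ratio of the members was −1.46 in SAA and −1.78 in RC, beside −0.33 and −0.38 over all genes. Other scalings moved all granulocyte-to-monocyte log2 ratios up by 0.33 to 0.42 and kept these counts.

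**Figure D1:**
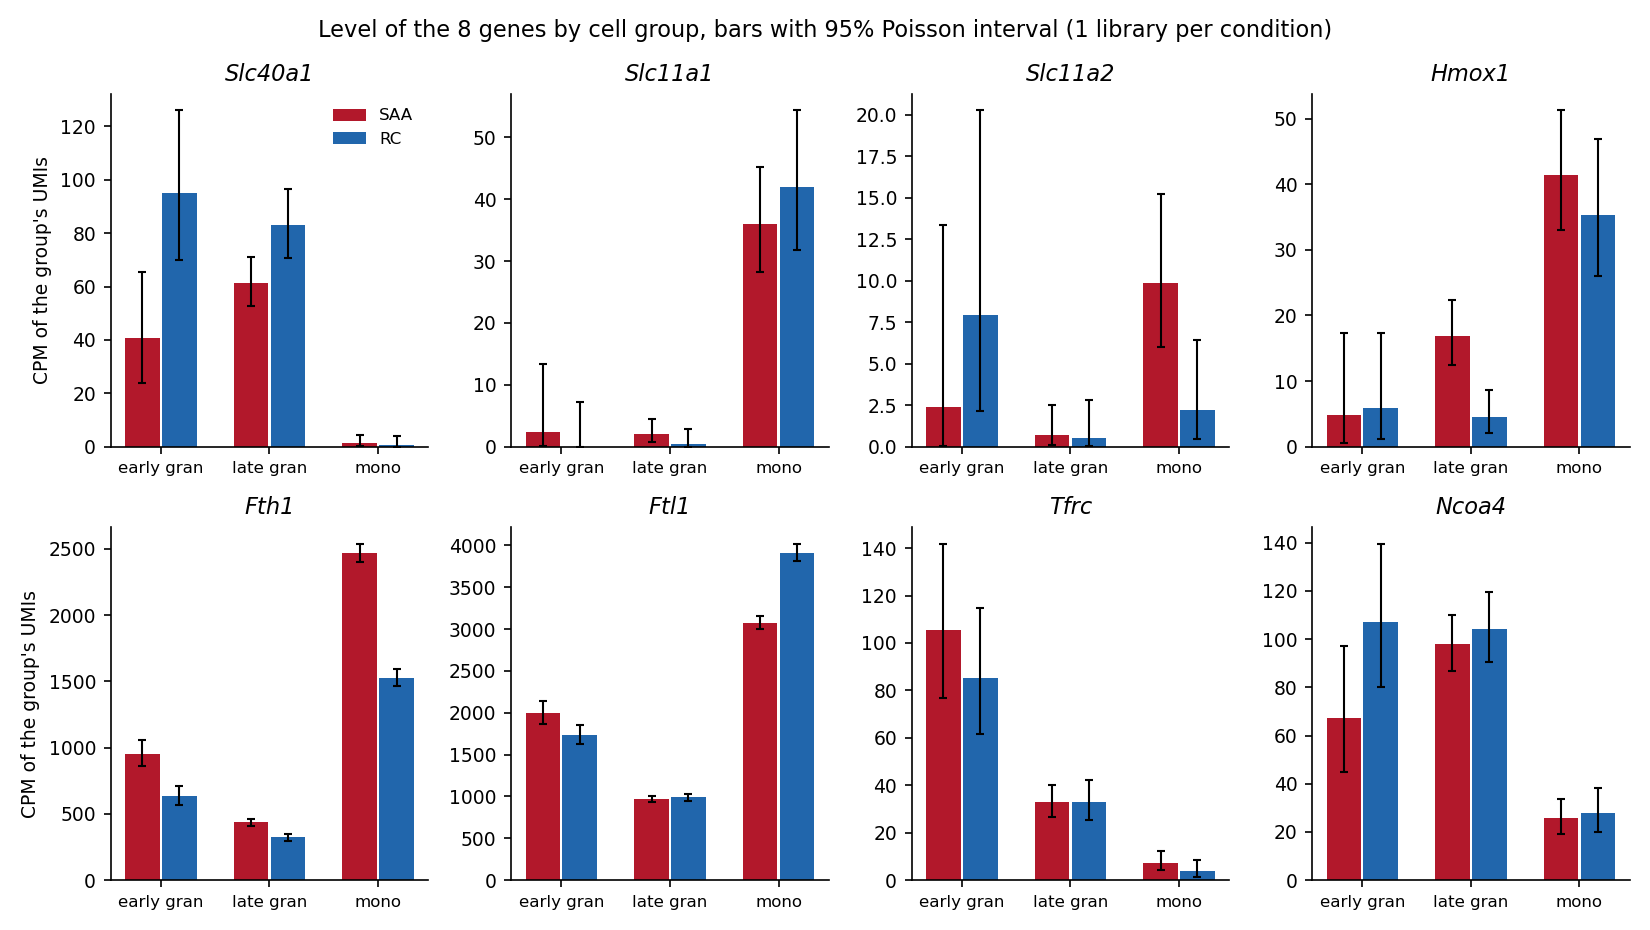
Level of each of the 8 genes (CPM, linear axes that differ between panels) in early granulocyte-like, late granulocyte-like and monocyte-like cells, SAA in red on the left and RC in blue on the right, with bars showing the exact 95% Poisson interval of 1 library. Slc40a1 stood at 40.8 to 95 CPM in the 4 granulocyte-like groups and at most 1.48 CPM in monocyte-like cells, and Slc11a1 shows the opposite placement.

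Slc40a1 and Slc11a1, an exporter of iron from the cell and a transporter of the phagosome membrane, were almost never seen in the same cell. Of 141 SAA cells and 145 RC cells with a Slc40a1 UMI, 1 in each library also held a Slc11a1 UMI, among 60 and 51 cells that held Slc11a1. Tfrc was seen in 35 of the 141 SAA cells and in 45 of the 145 RC cells with Slc40a1. A Slc40a1 UMI was held by 0.702% of monocyte-like cells in SAA and 0.292% in RC, against 32.8% and 45.3% of granulocyte-like cells. The 1 RC monocyte-like cell with such a UMI also held a UMI of the macrophage complement genes C1qa, C1qb or C1qc. Free RNA gives UMIs in cells that do not express a gene, and its part in these shares was not tested. Thinned to 2600 UMIs per cell, the granulocyte-like shares were 13.3% in SAA and 20.2% in RC.

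Slc40a1 was lower in SAA than in RC granulocyte-like cells. The SAA cells held 195 UMIs in 138 of 421 cells and the RC cells 211 UMIs in 144 of 318 cells, which gave an SAA-to-RC ratio of 0.691 (0.566 to 0.844). The ratio lies short of a 1.5-fold difference, and 14.3% of all genes had a lower one. No cell held more than 5 Slc40a1 UMIs, and the tenth of cells with the most UMIs held 51.3% of them in SAA and 38.4% in RC. Among cells with at least 0.2% of their UMIs in 10 cell cycle genes, the ratio was 0.631 (0.501 to 0.793, with 315 SAA and 228 RC cells), and among the remaining 106 SAA and 90 RC cells it was 0.989 (0.647 to 1.51). These intervals overlap, and 135 SAA and 85 RC cells had between 0.1% and 0.3% in those genes, near the threshold. Thinned to equal depth, the ratio was 0.734 with an interval that includes 1 (0.516 to 1.04). The 12 macrophage markers, of a cell type known for high ferroportin, stood at 35.6 CPM in SAA and 111.7 CPM in RC granulocyte-like cells, of which Vcam1 gave 78 and 265 UMIs, while Siglec1, Cd163 and Timd4 were at 0 in both libraries. Vcam1 alone set that direction, and the other 11 markers together held 40 UMIs in SAA (12.1 CPM) and 12 in RC (4.84 CPM). Kit, a receptor of progenitor cells, also moved with Slc40a1, with 10 UMIs (3.02 CPM) in SAA and 96 (38.7 CPM) in RC granulocyte-like cells. The list of 4 progenitor markers stood at 3.92 and 39.5 CPM, and Kit gave most of it. Of the others, Cd34 held 1 UMI in SAA and 2 in RC, Flt3 held 2 and 0, and Gata2 was at 0 in both. Kit was lower in SAA in the early cells (12 and 63.3 CPM) and in the late cells (1.73 and 32.6 CPM). The part of macrophage RNA or of progenitor cells in the Slc40a1 difference was not tested.

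By stage, the gap in Slc40a1 was found in early and in late cells. Early cells held 17 UMIs in 7 of 29 SAA cells (40.8 CPM, 23.8 to 65.3) and 48 UMIs in 27 of 45 RC cells (95 CPM, 70.1 to 126), an SAA-to-RC ratio of 0.430 (0.232 to 0.761). Late cells held 178 UMIs in SAA (61.4 CPM) and 163 in RC (82.9 CPM), a ratio of 0.741 (0.595 to 0.922). The early-to-late ratio was 0.665 in SAA (0.379 to 1.10) and 1.15 in RC (0.813 to 1.59), and both intervals include 1. The SAA value depended on which cells were called early, being 0.158 with a stage margin of 4 times, 0.144 with Prtn3 and Ctsg as early genes and 1.60 without the cells that held a monocyte gene UMI. Along the share of stage UMIs that came from Elane and Mpo, the earliest bin (share of at least 0.9) had the widest gap. It held 2 Slc40a1 UMIs over 18 SAA cells (7.74 CPM) and 31 UMIs over 33 RC cells (83.8 CPM), a ratio of 0.0924 (0.0107 to 0.363). Between shares of 0.5 and 0.9 the levels were 94.8 CPM in SAA and 118.3 CPM in RC, with 11 and 13 cells. They were 69.0 and 90.4 CPM between 0.1 and 0.5, and 59.9 and 81.6 CPM below 0.1. Bins under 20 cells, among them the earliest SAA cells, carry no trend.

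**Figure D2:**
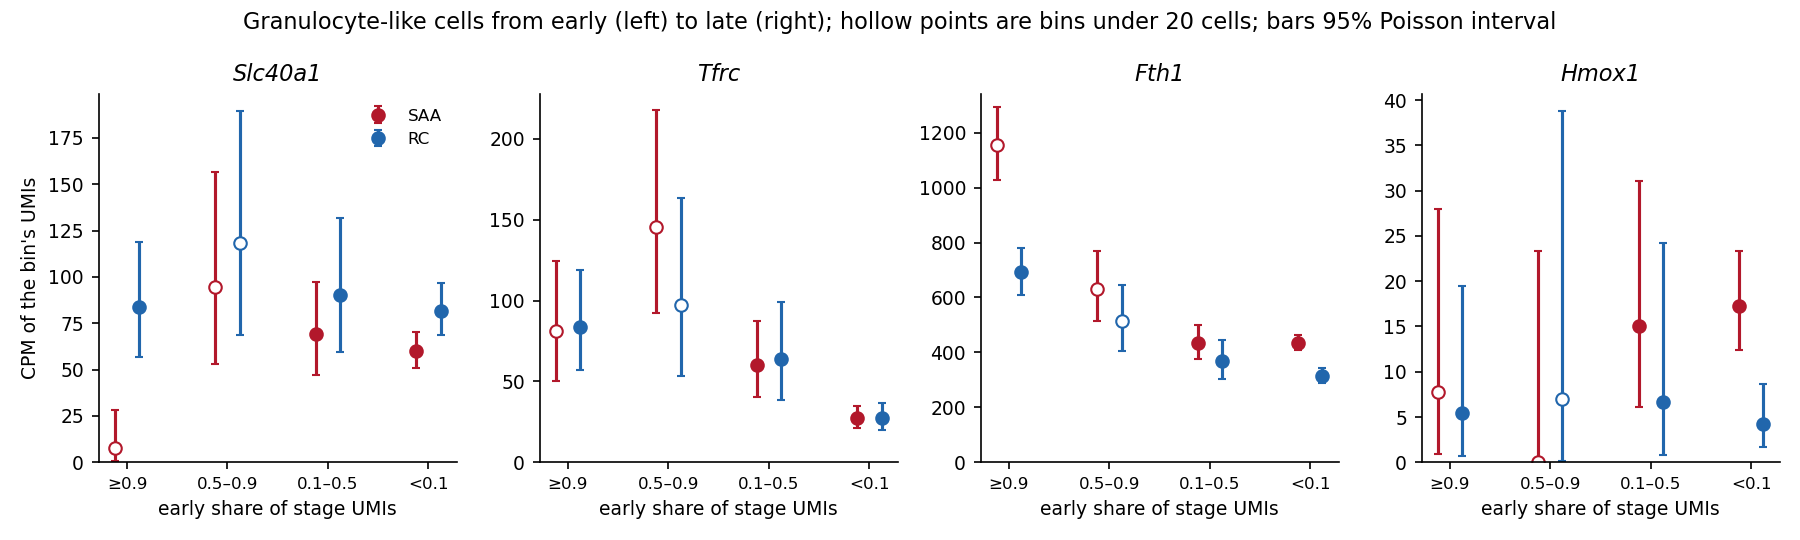
Level of Slc40a1, Tfrc, Fth1 and Hmox1 (CPM of the bin) in granulocyte-like cells binned by the early share of their stage UMIs, Elane and Mpo over these plus Camp and Ngp, from early on the left to late on the right, with SAA in red, RC in blue, bars for the exact 95% Poisson interval and hollow points for bins under 20 cells. Slc40a1 in the earliest bin was 7.74 CPM in SAA and 83.8 CPM in RC. Tfrc and Fth1 stood higher in the bins with a share of at least 0.5 than in the latest bin of both libraries. Hollow bins carry no trend, and the SAA bins with a share of at least 0.5 are hollow.

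The early SAA cells also carried monocyte transcripts. Of the 29 early SAA cells, 18 held at least 1 UMI of the 5 monocyte genes, with a median of 14.5 such UMIs, and of the 45 early RC cells 16 did, with a median of 3. In the early cells with a monocyte UMI, Slc40a1 had 0 UMIs in SAA (of 248606, which allows up to 14.8 CPM) and 10 UMIs in RC (57.6 CPM). The interval of the SAA-to-RC ratio was 0 to 0.312. In the early cells with none, Slc40a1 held 17 UMIs in 11 SAA cells (101.2 CPM) and 38 UMIs in 29 RC cells (114.6 CPM), a ratio of 0.883 (0.468 to 1.60). Late cells without a monocyte UMI, 370 in SAA and 266 in RC, had a ratio of 0.764 (0.611 to 0.955). What the early cells with both sets of markers are was not tested. Doublets were called in 12 SAA cells, all granulocyte-like, and in 1 granulocyte-like RC cell, and without them the granulocyte-like Slc40a1 ratio was 0.700 (0.572 to 0.856).

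**Figure D3:**
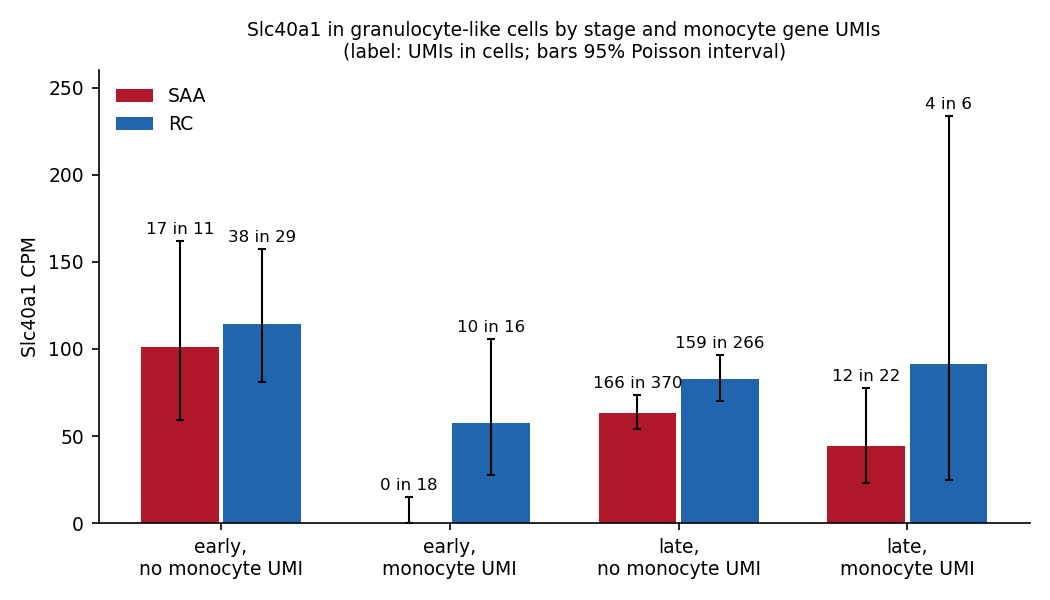
Slc40a1 level (CPM) in early and late granulocyte-like cells without and with a UMI of the 5 monocyte genes, SAA in red on the left of each pair and RC in blue, with the exact 95% Poisson interval and the number of UMIs and cells above each bar. Early cells without a monocyte UMI stood at 101.2 CPM in SAA and 114.6 CPM in RC, and early cells with such a UMI at 0 and 57.6 CPM.

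The genes whose levels followed Slc40a1 most closely over the 6 groups of cells (monocyte-like, early and late granulocyte-like in each library) were Mcu, which encodes the pore of the mitochondrial calcium uniporter, Cd63, a tetraspanin of granule and lysosome membranes, Pxylp1, a phosphatase of proteoglycan synthesis, Desi1, a desumoylating peptidase, and Tst, a mitochondrial sulfurtransferase. Their Pearson correlations of log2(CPM + 10) with Slc40a1 were between 0.996 and 0.998 (n = 6 groups), and 253 of 7098 genes with at least 100 UMIs exceeded 0.9. The 6 groups share 2 libraries and their depth, so this is a description. Like Slc40a1, Cd63 was lower in SAA than in RC early cells (285.7 and 819.4 CPM) and late cells (462.9 and 607.8 CPM). This likeness follows from the choice, since the correlation was taken over these same groups.

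Slc11a1, the phagosome transporter, was found almost wholly in the monocyte-like cells, with no difference between the conditions beyond counting error. It held 73 UMIs in SAA (36.0 CPM, 28.2 to 45.3) and 57 in RC (41.96 CPM, 31.8 to 54.4), a ratio of 0.858 (0.598 to 1.24). The shares of monocyte-like cells with a UMI were 18.6% in SAA and 14.6% in RC, and at equal depth 7.49% and 9.40%. It was lower in the cells with cell cycle transcripts, at 15.8 CPM against 58.7 CPM in the other monocyte-like cells of SAA (0.270, 0.147 to 0.471) and 12.9 CPM against 61.3 CPM in RC (0.211, 0.0806 to 0.467). Granulocyte-like cells held 7 UMIs in SAA and 1 in RC. Slc11a2, the transporter of the endosome and the gut surface, was scarce. Monocyte-like cells held 20 UMIs in SAA (9.86 CPM) and 3 in RC (2.21 CPM), a ratio of 4.47 with a wide interval (1.32 to 23.5), and granulocyte-like cells held 3 and 6. At equal depth Slc11a2 was seen in 2.25% of SAA and 1.13% of RC monocyte-like cells, so the ratio rests on few molecules.

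Hmox1 differed between conditions in the granulocyte-like cells. Those cells held 51 UMIs in SAA (15.4 CPM, 11.5 to 20.2) and 12 in RC (4.84 CPM, 2.50 to 8.45), a ratio of 3.18 (1.67 to 6.55), and it was seen in 11.6% of SAA and 3.46% of RC cells. At equal depth these shares were 4.36% and 1.89%, and the ratio of 2.30 had an interval that includes 1 (0.876 to 7.09). As a measure of monocyte RNA in these cells, Slc11a1, with 73 UMIs in SAA and 57 in RC monocyte-like cells, was seen in 1.43% of SAA and 0.314% of RC granulocyte-like cells. That rests on 7 and 1 UMIs, a ratio of 5.24 (0.673 to 236). The 5 monocyte genes, which also set the classes, held 500 UMIs in SAA (150.8 CPM) and 171 in RC (69.0 CPM) granulocyte-like cells. In monocyte-like cells Hmox1 stood at 41.4 CPM in SAA (84 UMIs) and 35.3 CPM in RC (48 UMIs), a ratio of 1.17 (0.813 to 1.71). The granulocyte-like ratio was 2.71 times the monocyte-like one (1.32 to 5.58). In the late cells Hmox1 held 49 UMIs in SAA (16.9 CPM) and 9 in RC (4.58 CPM), a ratio of 3.69 (1.80 to 8.55), and in the early cells 2 and 3. Late cells without a monocyte gene UMI had a ratio of 4.02 (1.87 to 9.89), and those with one 0.809 (0.0905 to 38.2, from 5 and 1 UMIs). The part of monocyte RNA in the Hmox1 difference was not tested.

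More late cells of SAA carried Cxcr2 or Il1r2, and Hmox1 was higher in SAA with and without them. These receptors are known from maturing neutrophils, and they are 2 of a list of 5 markers, chosen after the values were seen. One or both had a UMI in 224 of 392 late SAA cells (57.1%) and 47 of 272 late RC cells (17.3%). The other markers of the list differed less or were scarce in granulocyte-like cells, with Ly6g at 133.9 CPM in SAA and 137.1 CPM in RC, Retnlg at 31.7 and 24.2 CPM and Mmp8 at 5.73 and 1.61 CPM. Il1r2 also held 61 UMIs in SAA and 0 in RC monocyte-like cells. Among the cells with such a UMI, Hmox1 was 18.9 CPM in SAA and 2.47 CPM in RC (7.66, 1.28 to 311.2). Among the rest it was 13.6 and 5.12 CPM (2.66, 1.06 to 7.24). Slc40a1 was 64.0 CPM in SAA and 86.5 CPM in RC with Cxcr2 or Il1r2 (0.740, 0.503 to 1.11) and 57.2 and 82.0 CPM without them (0.698, 0.508 to 0.951). The part of neutrophil maturity in either difference was not tested.

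The ferritin chains parted in the monocyte-like cells. Fth1 stood at 2469 CPM in SAA (5007 UMIs, 2401 to 2538) and 1528 CPM in RC (2076 UMIs, 1463 to 1596), a ratio of 1.62 (1.53 to 1.70), whereas Ftl1 stood at 3078 CPM in SAA (6244 UMIs) and 3912 CPM in RC (5314 UMIs), a ratio of 0.787 (0.759 to 0.816). Fth1 thus made up 44.5% of ferritin UMIs in SAA (43.6 to 45.4) and 28.1% in RC (27.1 to 29.1). UMIs at the 5′ end are not corrected for how well each transcript is captured, so the share compares the libraries and not the amounts of the chains. Cell by cell, the median Fth1 share was 40.5% over 253 SAA cells and 27.6% over 309 RC cells with at least 10 ferritin UMIs. Fth1 exceeded Ftl1 in 78 of 285 SAA cells (27.4%) and 12 of 342 RC cells (3.51%), and at equal depth in 28.5% and 4.14%. In RC 0 of 45 early granulocyte-like cells had more Fth1 than Ftl1, which allows up to 7.87% of cells (exact), and in SAA 4 of 29 did. At equal depth 5 of 44 RC cells (11.4%, 3.79 to 24.6) and 6 of 29 SAA cells (20.7%, 7.99 to 39.7) did. A processed copy of the light chain gene, Ftl1-ps1, was counted apart and held 56 UMIs in SAA and 29 in RC monocyte-like cells, and the Ftl1 level is uncertain to the extent that reads fit both genes.

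**Figure D4:**
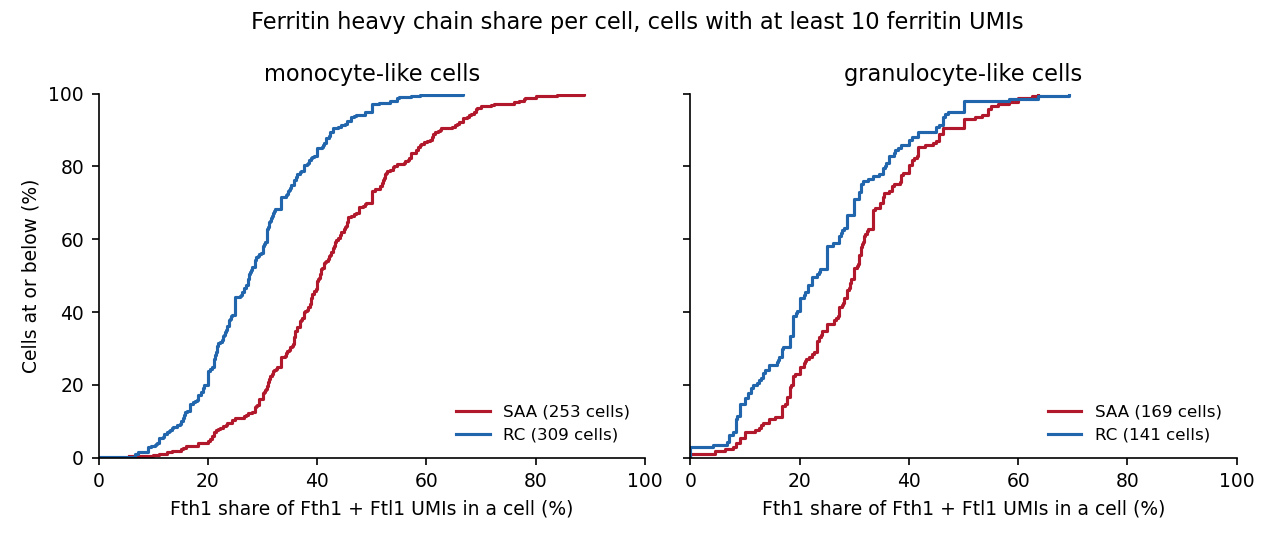
Cumulative share of cells (vertical axis) by the Fth1 percentage of their Fth1 and Ftl1 UMIs (horizontal axis), for cells with at least 10 ferritin UMIs, SAA in red and RC in blue. The SAA curve of the monocyte-like cells lies to the right of the RC curve, with medians of 40.5% and 27.6%, and for granulocyte-like cells the medians are 30.0% and 23.1%.

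Fth1 was highest in SAA cells with complement transcripts of macrophages, and the difference between conditions was also present outside them. C1qa, C1qb and C1qc held 60, 135 and 65 UMIs in monocyte-like SAA cells and 1, 0 and 0 in RC. The list of 12 macrophage markers stood at 212.5 and 71.4 CPM, and the C1q genes made up most of that difference. Adgre1 (50.8 and 56.7 CPM) and Cd163 (0 and 3 UMIs) were lower in SAA. The remaining markers were higher there, with at most 22 UMIs each (Mertk, 22 and 0). The 38 SAA cells with a C1q UMI had 4080 CPM of Fth1 and the other 247 had 2196 CPM. Without the cells with a C1q UMI the SAA-to-RC ratio of Fth1 was 1.44 (1.36 to 1.52) and that of Ftl1 was 0.743 (0.715 to 0.773), so that Fth1 was then under the 1.5-fold threshold. Within cells with cell cycle transcripts the Fth1 ratio was 1.51 (1.38 to 1.65), and within the other monocyte-like cells 1.83 (1.72 to 1.95). Both chains were lower in the cycling monocyte-like cells of each library, Fth1 by ratios of 0.584 in SAA and 0.708 in RC, and Ftl1 by 0.697 and 0.702. Cycling cells made up 114 of 285 monocyte-like cells in SAA and 87 of 342 in RC.

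In granulocyte-like cells both ratios lay nearer to 1. Fth1 stood at 500.7 CPM in SAA and 388.3 CPM in RC, a ratio of 1.29 (1.19 to 1.40), and Ftl1 at 1098 and 1141 CPM, a ratio of 0.963 (0.916 to 1.01). The granulocyte-like ratio was 0.798 times the monocyte-like ratio for Fth1 (0.726 to 0.877) and 1.22 times for Ftl1 (1.15 to 1.30). Without the cells that held a monocyte gene UMI, the ratios were 1.08 for Fth1 (0.982 to 1.18) and 0.852 for Ftl1 (0.805 to 0.901), and the monocyte genes themselves stood at 150.8 CPM in SAA and 69.0 CPM in RC granulocyte-like cells. The Fth1 share of ferritin UMIs was 31.3% in SAA and 25.4% in RC. Both chains were higher in early than in late cells, Fth1 by 2.20 times in SAA (1.96 to 2.46) and 1.97 times in RC (1.72 to 2.26), and Ftl1 by 2.06 times in SAA and 1.76 times in RC. These ratios were lower without the cells that held a monocyte gene UMI. Among the cells without one, Fth1 was 464.3 CPM in early and 387.7 CPM in late SAA cells (1.20, 0.939 to 1.51) and 600 and 321 CPM in RC (1.87, 1.585 to 2.20). Ftl1 was 1173 and 885.1 CPM in SAA (1.325, 1.14 to 1.53) and 1468 and 991.5 CPM in RC (1.48, 1.34 to 1.64). Between the conditions, early cells without a monocyte gene UMI had an SAA-to-RC ratio of Fth1 of 0.774 (0.588 to 1.01), and early cells with one had 1287 CPM in SAA and 702.8 CPM in RC (1.83, 1.48 to 2.28). The late cells without one, 370 in SAA and 266 in RC, had ratios of 1.21 for Fth1 (1.09 to 1.34) and 0.893 for Ftl1 (0.840 to 0.949). The ratio of 1.08 thus joins early and late cells that lay on opposite sides of 1 for Fth1.

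Tfrc, the uptake receptor, was higher in early than in late granulocyte-like cells of both libraries, and its ratio between the conditions had an interval that includes 1. In granulocyte-like cells it held 139 UMIs in SAA (41.9 CPM) and 110 in RC (44.4 CPM), a ratio of 0.945 (0.731 to 1.23). Early cells held 105.6 CPM against 32.8 CPM in late cells of SAA (3.22, 2.20 to 4.66) and 85.1 CPM against 33.1 CPM in RC (2.57, 1.71 to 3.84). Among early cells without a monocyte UMI, Tfrc was 190.5 CPM in 11 SAA cells and 99.5 CPM in 29 RC cells (1.92, 1.14 to 3.21), and 1 SAA cell held 7 of its 32 UMIs. The early-to-late ratio in cells without a monocyte UMI was 6.105 in SAA (3.925 to 9.29) and 2.99 in RC (1.90 to 4.62). Transferrin receptor is known to be high in dividing cells. Granulocyte-like cells with cell cycle transcripts held 41.8 CPM against 42.8 CPM in the others in SAA (0.976, 0.625 to 1.59), and the same ratio was 1.25 in RC. With other thresholds for cycling or at equal depth, it lay between 0.603 and 2.10 in SAA and between 0.681 and 1.46 in RC, so no direction can be read from it. Monocyte-like cells held 15 Tfrc UMIs in SAA (7.40 CPM) and 5 in RC (3.68 CPM), a ratio of 2.01 (0.694 to 7.07), and 11 of the 15 and 4 of the 5 were in cells with cell cycle transcripts.

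Ncoa4, the ferritin carrier, had ratios that include 1 in both classes. Granulocyte-like cells held 312 UMIs in SAA (94.1 CPM) and 259 in RC (104.4 CPM), a ratio of 0.901 (0.762 to 1.07), and monocyte-like cells 52 (25.6 CPM) and 38 (28.0 CPM), a ratio of 0.916 (0.592 to 1.43). In the early cells Ncoa4 was 67.2 CPM in SAA and 106.9 CPM in RC (0.629, 0.384 to 1.01). As for Slc40a1, that gap was in the early cells with a monocyte gene UMI, at 36.2 CPM in SAA and 121 CPM in RC (0.299, 0.121 to 0.682), while the early cells without one had 113.1 and 99.5 CPM (1.14, 0.611 to 2.06).

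Read across the conditions, 3 of the 7 members with at least 20 UMIs in monocyte-like cells were at least 1.5-fold higher in SAA (Fth1, Slc11a2 and Tfrc, background 15.8% of 8662 genes) and 0 were lower (19.5%). For Tfrc the interval included 1, and without the 38 SAA cells with a C1q UMI the count was 2, as Fth1 was then at 1.44. The median log2 ratio of these members was 0.23, beside −0.06 over all genes. In granulocyte-like cells 1 of 6, Hmox1, was higher (14.2% of 8812 genes) and 0 were lower (12.7%), with a median of −0.07 beside 0.04. Among early cells 1 of 5 was higher (Fth1, 20.3% of 5414 genes) and 2 were lower (Slc40a1 and Ncoa4, 16.6%), and among late cells 1 of 6 was higher (Hmox1, 17.2% of 8323 genes) and 0 were lower (10.1%). The early Fth1 call rests on the cells with a monocyte gene UMI, since its ratio was 0.774 without them. From early to late cells, Tfrc, Fth1 and Ftl1 were at least 1.5-fold higher in the early cells of both libraries, 3 of 6 in SAA (37.1% of 7814 genes) and 3 of 5 in RC (38.8% of 7249 genes). Without the cells that held a monocyte gene UMI, Tfrc passed 1.5-fold in both libraries and Fth1 in RC alone, and Ftl1 passed it in neither. The members lower in early cells were 2 of 6 in SAA (Hmox1 and Slc40a1, 17.0%, both with intervals that include 1) and 0 of 5 in RC (12.4%).

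**Figure D5:**
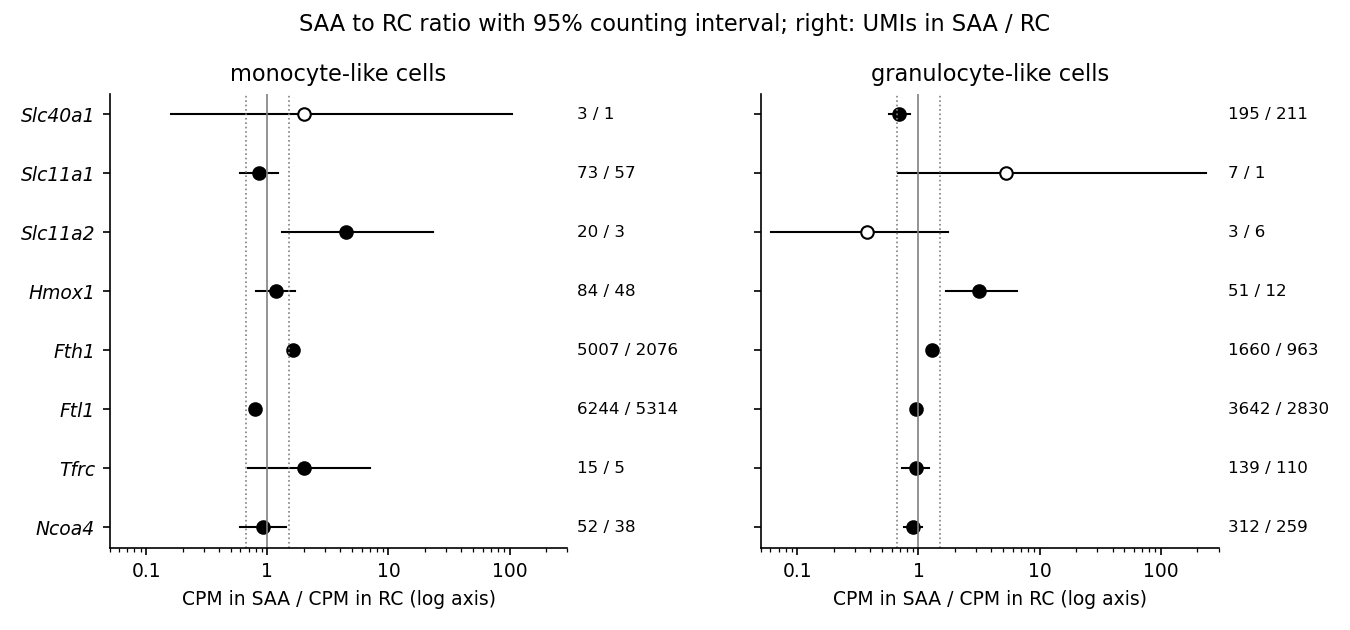
SAA-to-RC ratio of each gene (log axis) in monocyte-like cells on the left and granulocyte-like cells on the right, with the exact conditional 95% interval, hollow points for genes with under 20 UMIs in both libraries together, dotted lines at 1.5-fold, and the UMIs in SAA and RC beside each row. Fth1 at 1.62 in monocyte-like cells and Hmox1 at 3.18 in granulocyte-like cells lie above 1.5-fold with intervals that leave out 1, and Slc40a1 at 0.691 in granulocyte-like cells lies below 1.

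Other genes of iron and heme handling lay on both sides in the monocyte-like cells. Of 65 listed, 43 had at least 20 UMIs, of which 9 were at least 1.5-fold higher in SAA and 10 lower, beside the backgrounds of 15.8% and 19.5% given above (median log2 ratio −0.13, beside −0.06 over all genes). Of the 12 measured genes of heme synthesis and breakdown 0 were lower, and the higher ones included Blvrb, Alad, Alas1 and Uros, of which Alad (0.976 to 9.13) and Uros (0.664 to 5.57) had intervals that include 1. Of the 9 measured genes of import, export and reduction, 2 were higher (Lcn2 and Slc25a37) and 6 lower (Trf, Steap3, Mcoln1, Hfe, Flvcr1 and Slc25a28). The intervals of Mcoln1 (0.3125 to 1.03), Hfe (0.284 to 1.24) and Flvcr1 (0.384 to 1.04) include 1. Of the 10 measured iron-sulfur cluster genes 0 were higher, and of the 10 regulators and chaperones 2 were higher, Fbxl5 and Hif1a, and 1 lower, Bach1. None of the 5 hepcidin axis genes reached 20 UMIs in this class.

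The 3 highest and the 3 lowest of that list, by the interval bound nearest to 1, are given as a description, since their ratios chose them. Blvrb, which reduces the biliverdin that heme oxygenase makes, was 162.7 CPM in SAA and 49.3 CPM in RC monocyte-like cells (3.30, 2.53 to 4.36), with a UMI in 58.3% and 18.4% of cells. Trf, which encodes transferrin, the iron carrier that Tfrc takes up, had 1 UMI in 1 of 285 SAA cells and 75 UMIs in 59 of 342 RC cells, a ratio of 0.00893 (0.000223 to 0.0513). Fbxl5, the iron-sensing subunit of the ligase that degrades iron regulatory protein 2, was 118.8 and 57.4 CPM (2.07, 1.60 to 2.71). Bach1, a heme-sensing repressor of Hmox1 and the ferritin genes, was 76.9 CPM in SAA and 160.5 CPM in RC (0.479, 0.388 to 0.591), and Lrp1, a receptor that takes up heme bound to hemopexin, was 90.2 and 247.4 CPM (0.365, 0.303 to 0.438). Lcn2, which binds bacterial siderophores, was 156.8 and 41.2 CPM (3.80, 2.86 to 5.15). Lcn2 is a granule gene, and the granulocyte genes together stood at 558.1 CPM in SAA and 372.5 CPM in RC monocyte-like cells. Prtn3 set that direction, at 396.9 and 156.1 CPM. Ngp (12.3 and 9.57 CPM) and Elane (88.7 and 86.9 CPM) were also higher in SAA, whereas Camp, Fcnb, Cebpe, Mpo and Ctsg were lower. The part of granulocyte RNA in the Lcn2 difference was not tested.

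In granulocyte-like cells 41 of the 65 genes had at least 20 UMIs, and 5 were at least 1.5-fold higher in SAA (Fbxl5, Trf, Cpox, Keap1 and Ireb2, background 14.2%) and 3 lower (Hfe, Abcb10 and Isca2, background 12.7%), with a median log2 ratio of −0.01 beside 0.04 over all genes. The intervals of Trf (0.9635 to 9.28) and Hfe (0.164 to 1.01) include 1. Fbxl5 was again higher, at 92.6 CPM in SAA and 27.8 CPM in RC (3.33, 2.56 to 4.39), with a UMI in 47.3% and 18.9% of cells. Ltf, the iron-binding granule protein lactoferrin, was 5545 and 3834 CPM (1.45, 1.41 to 1.48), and Lcn2 was 7942 and 6136 CPM (1.29, 1.27 to 1.32). Lower in SAA were Abcb10, a mitochondrial transporter needed for heme synthesis, at 12.97 and 29.8 CPM (0.435, 0.291 to 0.641), and Isca2 and Iscu, factors of iron-sulfur cluster assembly, with ratios of 0.629 (0.505 to 0.784) and 0.739 (0.590 to 0.925). In early cells alone Fbxl5 had a ratio of 2.28, Lcn2 of 2.97, Abcb10 of 0.253, Alas1, the first enzyme of heme synthesis, of 0.634 (0.502 to 0.796) and Pcbp2, an iron chaperone, of 0.671 (0.516 to 0.868). In late cells alone Fbxl5 had a ratio of 3.59, Cpox, an enzyme of heme synthesis, of 2.21 (1.31 to 3.92), Keap1, a sensor of oxidative stress, of 1.91 (1.35 to 2.76), Abcb10 of 0.515, Isca2 of 0.639 and Iscu of 0.706. The erythroid markers Alas2, Klf1, Epor and Slc4a1 had 0 UMIs in both classes of both libraries, and the whole list of 9 erythroid markers, hemoglobin genes included, stood between 0.302 and 12.5 CPM.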

How the data were processed

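The authors aligned the reads of the single-cell 5′ v2 libraries to mm10 (Cell Ranger 6.0.1, per the submitters' processing notes) and deposited raw UMI counts per gene and barcode, 1 matrix per condition. Barcodes with at least 1000 genes were kept. In Python 3.11.15 (numpy 2.4.6, scipy 1.17.1, pandas 2.3.3) UMIs were summed per library and cell class and scaled to 1000000. Levels have exact Poisson, ratios exact conditional binomial and shares Clopper-Pearson 95% intervals, which cover counting error only. The granulocyte-like ratio over the monocyte-like ratio has an approximate log-normal interval. No test between conditions was possible with 1 library each. Genes with fewer than 20 UMIs in both libraries together entered no count. Shares of cells were repeated with cells thinned to 2600 UMIs, which left out 18 SAA and 76 RC monocyte-like and 8 SAA and 1 RC granulocyte-like cells. The classes rest on 5 monocyte and 8 granulocyte genes and no clustering was run. T or NK markers exceeded both sets in 10 monocyte-like and 7 granulocyte-like SAA cells, which were kept. Doublets were kept and called with Scrublet (scanpy 1.11.5), and edgeR 4.0.16 gave only TMM scaling factors as an alternative. The retained cells included 23 SAA and 2 RC cells with equal monocyte and granulocyte UMIs, which entered no class.

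All 8 members are named, with, of 65 other iron and heme genes, the 3 highest and 3 lowest ratios per class whose interval leaves out 1, and the 5 genes most correlated with Slc40a1. Transcripts, exons and UTRs came from GENCODE M21 (GRCm38, the assembly of mm10), whose gene identifiers match those of the tables. The ratio, level and share intervals were tested on simulated Poisson and binomial counts, which hold no further spread between cells or mice. Members and lists were chosen with earlier results of these data known. The splits by monocyte, C1q and Cxcr2 or Il1r2 UMIs were chosen after values were seen. Alternatives covered the gene minimum, class and stage rules, mitochondrial share, doublets, T or NK cells, depth, scaling, cell weights, the highest cell, the cycling threshold and the UMI minimum. The deposited barcodes with fewer than 1000 genes, 96 in SAA and 136 in RC, were used only as an alternative. Some genes of the lists are not reported here.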

Additional observations from a re-analysis of the deposited data

How the results depend on the processing

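Over 89 results, 583 of 646 alternative values stayed within counting error of the reported ones or, for counts, within 1.5 times, 61 moved further and 2 reversed. The SAA-to-RC ratio of Fth1 in monocyte-like cells (1.62) was 1.75 with at least 1500 genes per cell, 1.44 without cells with a C1q UMI, 1.73 with TMM factors and 1.72 with medians of ratios. With monocyte or granulocyte UMIs at least 2 times the other, 1 and not 3 members passed 1.5-fold in monocyte-like cells, as Slc11a2 and Tfrc fell under 20 UMIs. With at least 1500 genes, 1 and not 0 members was lower in granulocyte-like cells (Slc40a1, 0.655), and Slc11a1 in monocyte-like cells had a ratio of 1.32 (0.809 to 2.22) in place of 0.858. Slc40a1 depended on how early cells were defined. With a stage margin of 4 times its SAA-to-RC ratio in early cells was 0.110 and its early-to-late ratio in SAA 0.158, with Prtn3 and Ctsg as early genes 0.104 and 0.144, and without cells with a monocyte UMI 0.883 and 1.60. The cycling-to-other ratio of Tfrc in granulocyte-like cells was 2.10 in SAA with cycling from 0.1% of UMIs and 0.603 from 0.4%, and in RC 0.681 from 0.4% and 0.688 at equal depth. The cycling-to-other ratio in granulocyte-like SAA cells reversed for Slc40a1 (0.660 as computed first, 1.19 with cycling from 0.1%) and for Ftl1 (1.27, and 0.908 from 0.4%). Where no cause is given, it was not tested.

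No paired analysis was possible because each condition is 1 library. Mouse-to-mouse spread is therefore unknown, and condition, pool and library cannot be told apart. Depth limits Slc11a2, Slc40a1 in monocyte-like cells and every early-cell value of the members other than the ferritin genes, which rest on at most 54 UMIs per gene and library.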

Other observations

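The 39 SAA barcodes whose T or NK marker UMIs exceeded both the monocyte and the granulocyte lists belonged to no comparison of their own. Tfrc held 17 UMIs in 13 of these 39 cells (87.8 CPM, 51.2 to 140.6), Fth1 held 114 UMIs (588.9 CPM) and Ftl1 71 UMIs (366.7 CPM). Slc40a1, Slc11a1 and Hmox1 had 1 UMI each. The RC library had 1 such barcode with 1654 UMIs, so no level was read from it. Whether these are donor or host lymphocytes was not tested.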
